A study of Homo sapiens with 12 samples.

Results

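The genes described here are 9 nuclear genes for chaperones and proteases of the mitochondrial matrix: HSPD1, HSPE1, HSPA9, TRAP1, LONP1, CLPP, CLPX, GRPEL1 and HSCB. They were picked by name and function, with earlier results of these data already known, and each matched 1 of the 20033 protein-coding genes of GENCODE release 44. A gene was counted as having a peak when the summit of a peak lay within 1 kb of any of its annotated transcript starts. HSF1 peaks met this rule at 5 of the 9 genes (HSPD1, HSPE1, HSPA9, LONP1 and GRPEL1), against 25.4% of all protein-coding genes. H3K27ac peaks met it at 3 of the 9 (HSPD1, HSPE1 and HSPA9), which rest on 2 distinct peaks, against 3.31% of all protein-coding genes. No peak of either kind met it at TRAP1, CLPP, CLPX or HSCB.

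The values come from untreated, wild-type Huh7 cells, a human hepatocellular carcinoma line. They were profiled by CUT&Tag, in which an antibody directs a transposase to a chromatin protein so that nearby DNA is cut and tagged. The study examined heat shock transcription factor 1 (HSF1) and enhancer acetylation in liver cancer, and among its 12 samples 1 library was made with an HSF1 antibody and 1 with an antibody against histone H3 acetylated at lysine 27 (H3K27ac), a mark of active promoters and enhancers that served as the positive control of the assay. With 1 library for each antibody, no value below has a replicate check, and no test between genes or conditions was possible.

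Both peak lists rest on few tags after duplicate removal. The HSF1 library kept 2712212 of 3604911 tags (75.2%) after duplicate removal and gave 7147 peaks on chromosomes 1 to 22, X and Y. The H3K27ac library kept 896393 of 15737890 tags (5.70%) and gave 1299 peaks. Of 11 liver marker genes (among them ALB, AFP and TTR), 0 had an H3K27ac peak and 2 had an HSF1 peak, at APOA2 and HNF4A, so the peak lists at these genes do not show the labelled liver origin of the cells. A gene without an H3K27ac peak in this list was therefore recorded only as not listed.

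HSF1 is the main regulator of the heat shock response. It binds DNA as a trimer at heat shock elements, which are arrays of the unit GAA repeated in alternating orientation with 5 bases from one unit to the next. The proteins in question fold and remove other proteins inside mitochondria. HSP60, encoded by HSPD1, forms a barrel in which imported proteins fold, and HSP10, encoded by HSPE1, is its lid. Mortalin (HSPA9) is the HSP70 of the matrix and also pulls precursors through the import channel, GRPEL1 exchanges its nucleotide, and HSCB is a J-domain partner that delivers iron-sulphur clusters to it. TRAP1 is the mitochondrial member of the HSP90 family. LONP1 degrades oxidised and unfolded matrix proteins, and CLPX unfolds substrates that it feeds to the peptidase CLPP.

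The HSPD1-HSPE1 promoter held an uninterrupted heat shock element of 4 perfect units, which almost no other HSF1 peak held. The search for 4 units was chosen after the data were seen. This element lay at chr2:197500068-197500085 (hg38), between the canonical starts of HSPD1 and HSPE1, and spanned 18 bp. It is printed below on the plus strand, which is the coding strand of HSPE1, at chr2:197500062-197500091, and capitals mark the 4 units (GAA, or TTC where the unit faces the other way).
HSPD1-HSPE1 heat shock element: gctcggTTCcaGAActTTCcaGAAaatgcc

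At the other bound promoters the reference sequence had a different make-up. The window within 100 bp of the GRPEL1 summit (chr4:7068153-7068353, hg38, minus strand) held 3 CCAAT boxes, the sequence bound by NF-Y, and capitals mark them as CCAAT or, on the other strand, ATTGG. The HSF1 summit of LONP1 fell on a match to the ETS motif CCGGAAG (capitals; chr19:5720304-5720333, minus strand). At HSPA9 the best match to a heat shock element within 200 bp of the HSF1 summit had 1 mismatch in its 9 fixed bases (chr5:138575390-138575419, minus strand). Capitals mark the 3 unit positions, including the one that differs. This match lay 182 to 194 bp from the summit, farther than GC boxes (GGGCGG) and an E-box (CACGTG). These sequences are shown because the peaks described below lie on or beside them.
GRPEL1 summit window: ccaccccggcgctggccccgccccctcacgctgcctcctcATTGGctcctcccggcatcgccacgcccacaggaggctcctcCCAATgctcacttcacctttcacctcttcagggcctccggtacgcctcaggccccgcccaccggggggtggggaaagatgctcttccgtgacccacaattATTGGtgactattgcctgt
LONP1 summit: gcataaagtgggagaCCGGAAGaggcggag
HSPA9 element with 1 mismatch: acgtggttgGAGgtTTCcaGAAgcgctgcc

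HSPD1 (ENSG00000144381.18, chr2:197486584-197516737, minus strand) and HSPE1 (ENSG00000115541.11, chr2:197500140-197503449, plus strand) are transcribed away from each other. The starts of their canonical transcripts were 539 bp apart, at positions 197499840 and 197500379. A single HSF1 peak, chr2:197499739-197500426, covered both starts. It was 688 bp long, longer than 95.9% of all HSF1 peaks. Its pileup, which counts the extended tags that cover the summit, was 52 (95% exact Poisson interval 38.8 to 68.2), above that of 99.0% of HSF1 peaks, whose median was 13. Its fold enrichment over the local background was 12.3 (9.22 to 16.0), at percentile 98.2. Intervals here and below cover counting error only. Of the 4424 HSF1 peaks at starts of protein-coding genes, 81 had a higher fold enrichment.

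The HSF1 summit lay at position 197500211, between the canonical starts, 371 bp upstream of that of HSPD1 and 168 bp upstream of that of HSPE1. Because both genes have many annotated transcripts (24 for HSPD1 and 7 for HSPE1), the summit was also 3 bp from the nearest annotated start of HSPD1 and 71 bp from that of HSPE1. It lay in exons of 3 annotated transcripts, of HSPD1 and of HSPE1, and outside every canonical transcript. The readthrough gene HSPE1-MOB4 starts within 1 kb of the same summit, and its peak is the same peak.

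An H3K27ac peak, chr2:197499736-197500211, lay over the HSPD1 side of the HSF1 peak and shared 473 bp with it. Its pileup was 9 (4.12 to 17.1) and its fold enrichment was 6.17 (3.16 to 11.2), at percentile 54.1 of the H3K27ac peaks. Thus the promoter ranked near the top of the HSF1 list and near the middle of the H3K27ac list. The H3K27ac summit, at position 197500062, was 149 bp from the HSF1 summit, 222 bp upstream of the canonical HSPD1 start and 317 bp upstream of that of HSPE1.

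The 4-unit element lay 126 to 143 bp to the HSPD1 side of the HSF1 summit and 6 to 23 bp to the HSPE1 side of the H3K27ac summit. It was inside both peaks, but outside the window of 100 bp around the HSF1 summit that was searched for motifs. Its nearer edges were 228 bp upstream of the canonical HSPD1 start and 294 bp upstream of that of HSPE1. At least 4 perfect units in a row were found in 2 of the 7147 HSF1 peaks (0.028%). In the stretch from 250 bp upstream to 50 bp downstream of canonical starts, 4 of 20033 protein-coding promoters (0.02%) held them, HSPD1 among these. Of these 4 promoters only 1, that of HSPD1, had an HSF1 peak. No CCAAT box lay within 200 bp of the HSF1 summit. The same window held a match to the NRF1 motif (GCGCANGCG) 122 bp and an E-box (CACGTG) 146 bp to the HSPE1 side of the summit.

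HSPD1 had a further HSF1 peak, within 1 kb of an annotated start far upstream of the others. This peak, chr2:197515737-197516028, had its summit 894 bp inside the transcript that starts at 197516737 and 16003 bp upstream of the canonical HSPD1 start. Its pileup was 14 (7.65 to 23.5) and its fold enrichment was 8.33 (4.81 to 13.6), at percentile 76.0 by fold and 55.4 by pileup. The summit lay in no annotated exon and inside the canonical transcript of HSPE1-MOB4. A start of MOB4 also lay within 1 kb of this summit, so the peak cannot be assigned to HSPD1 alone. No H3K27ac peak, CCAAT box or heat shock element accompanied it within the windows searched. An ETS match (CCGGAAG), as at LONP1, lay 10 to 16 bp from its summit.

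The matrix HSP70 and its nucleotide exchange factor were next in fold enrichment. At GRPEL1 (ENSG00000109519.14), the HSF1 peak chr4:7067906-7068477 had a pileup of 27 (17.8 to 39.3) and a fold enrichment of 9.40 (6.31 to 13.5), at percentile 87.5. Its summit was 189 bp upstream of the canonical start and in no annotated exon. The 3 CCAAT boxes printed above were within 100 bp of it, and a further box was within 200 bp. CCAAT occurred within 100 bp of 30.7% of all HSF1 summits, and GRPEL1 was the only bound member that had it there.

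At HSPA9 (ENSG00000113013.16), the HSF1 peak chr5:138575370-138575787 had a pileup of 17 (9.90 to 27.2) and a fold enrichment of 8.74 (5.29 to 13.7). By fold it stood at percentile 81.4 and by pileup at percentile 71.2. The summit lay 191 bp upstream of the canonical start, in an exon of 1 retained-intron transcript of HSPA9. An H3K27ac peak, chr5:138575168-138575561, had its summit 37 bp downstream of the canonical start, with a pileup of 8 (3.45 to 15.8), a fold enrichment of 5.70 (2.82 to 10.6) and a percentile of 38.9. The peaks shared 192 bp and their summits were 228 bp apart. As at HSPD1-HSPE1, HSF1 was centred upstream of the canonical start and the H3K27ac peak was the lower of the pair in its own list. The element with 1 mismatch printed above began 9 bp upstream of the canonical start, 182 to 194 bp from the HSF1 summit and 34 to 46 bp from the H3K27ac summit. An element of this kind was present within 200 bp of 5.71% of all HSF1 summits.

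Among the proteases, LONP1 (ENSG00000196365.12) alone had an HSF1 peak. This peak, chr19:5720154-5720710, had a pileup of 13 (6.92 to 22.2), equal to the median of the library, and a fold enrichment of 6.80 (3.85 to 11.3), at percentile 48.8. Its summit was 172 bp upstream of the canonical start, in the 5′ untranslated exon of 1 longer LONP1 transcript. The gene CATSPERD starts 491 bp away in the opposite direction and is also within 1 kb of the summit. The ETS match under the summit was accompanied by an E-box 35 bp away, and no CCAAT box or heat shock element with at most 1 mismatch was found within 200 bp. An ETS match lay within 100 bp of 9.46% of all HSF1 summits and of 13.6% of those at coding promoters.

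**Figure D1:**
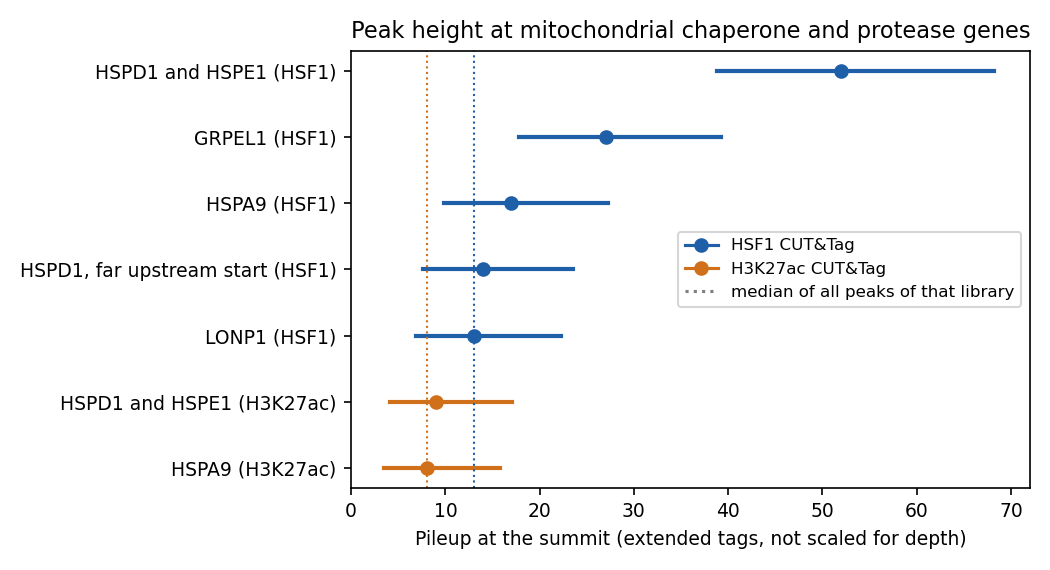
Pileup at the summit, in extended tags, for the 5 HSF1 peaks and 2 H3K27ac peaks at member genes. Points are single-library values, bars are 95% exact Poisson intervals, and dotted lines are the medians of all peaks of each library (13 for HSF1 and 8 for H3K27ac). The interval of the shared HSPD1-HSPE1 peak lies above those of HSPA9, LONP1 and the far upstream HSPD1 start, and it meets that of GRPEL1.

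By pileup, the interval of the shared promoter (38.8 to 68.2) did not overlap those of HSPA9, LONP1 or the far upstream HSPD1 start. It overlapped that of GRPEL1 (17.8 to 39.3) at its edge. GRPEL1, HSPA9, the far upstream HSPD1 start and LONP1 followed in that order, and the intervals of neighbours in the order overlapped. By fold enrichment, the intervals of all 5 HSF1 peaks overlapped. The local background was also higher at HSPD1-HSPE1, with 3.32 tags against 1.06 at HSPA9 and LONP1 and 1.98 at GRPEL1. The order of the members by fold enrichment was thus not resolved at this depth.

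**Figure D2:**
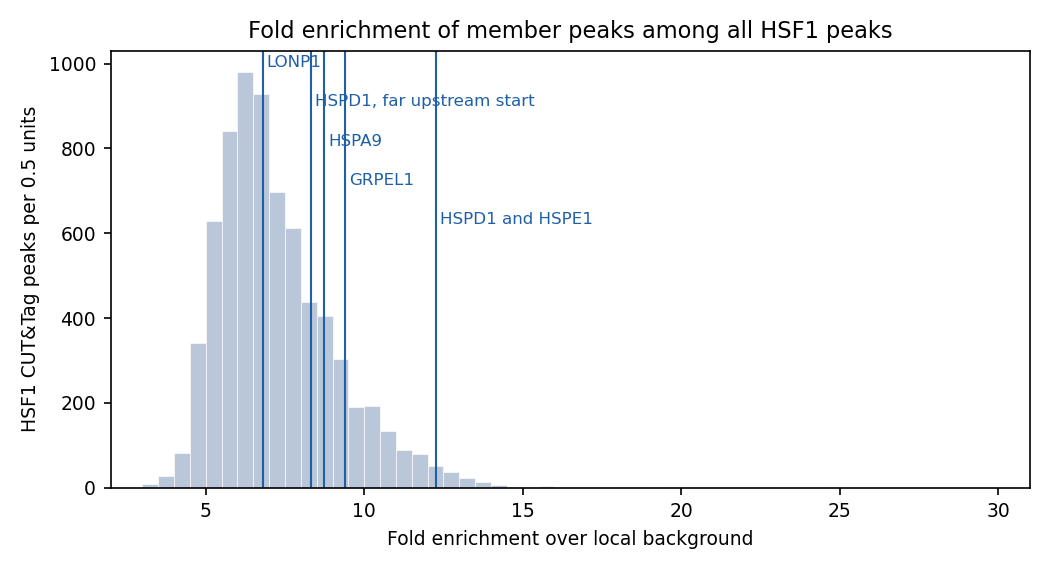
Histogram of the fold enrichment over local background of all 7147 HSF1 peaks, in bins of 0.5, with vertical lines at the 5 member peaks. LONP1 lies near the median of 6.85, and the shared HSPD1-HSPE1 peak lies in the upper tail at 12.3.

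The 4 remaining genes had no listed peak, and they include both Clp subunits. The nearest HSF1 summit was 8.13 kb from a start of CLPP (ENSG00000125656.11), 41.5 kb from HSCB (ENSG00000100209.11), 111 kb from CLPX (ENSG00000166855.9) and 218 kb from TRAP1 (ENSG00000126602.11). The peak nearest to CLPP had a fold enrichment of 5.15 and belonged to the start of ALKBH7. The nearest H3K27ac summits were between 525 kb (HSCB) and 1320 kb (CLPX) away. The lowest HSF1 peak in the list had a pileup of 4, and signal too weak to be listed could not be examined.

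CCAAT boxes were present at 3 of these 4 promoters without a peak. In the stretch from 250 bp upstream to 50 bp downstream of the canonical start, HSCB held 3, CLPP held 2 and CLPX held 1, against 4 at GRPEL1 and none at the other bound members. The HSCB box nearest to the start, 24 bp upstream of it (chr22:28742003-28742032, hg38, plus strand), is printed with CCAAT in capitals, so that it can be set beside the bound GRPEL1 window.
HSCB CCAAT box nearest to the start: tcgactccccagCCAATcagcaacattagt

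Across all protein-coding genes, 777 promoters held at least 3 CCAAT boxes in this stretch, and 439 of them (56.5%) had an HSF1 peak. GRPEL1 was among these 439 and HSCB was not. A CCAAT box was found in 44.8% of promoters with an HSF1 peak and in 33.1% of those without. For a heat shock element with at most 1 mismatch the shares were 3.81% and 4.93%. For an exact element they were 0.412% and 0.348%. The GC box (GGGCGG) was found in all 9 member promoters, bound or not, and in 61.3% of all promoters. Promoters with an HSF1 peak held it in 77.4% of cases and those without in 55.8%. TRAP1 alone held a cyclic AMP response element (TGACGTCA), which 2.69% of all promoters held.

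**Figure D3:**
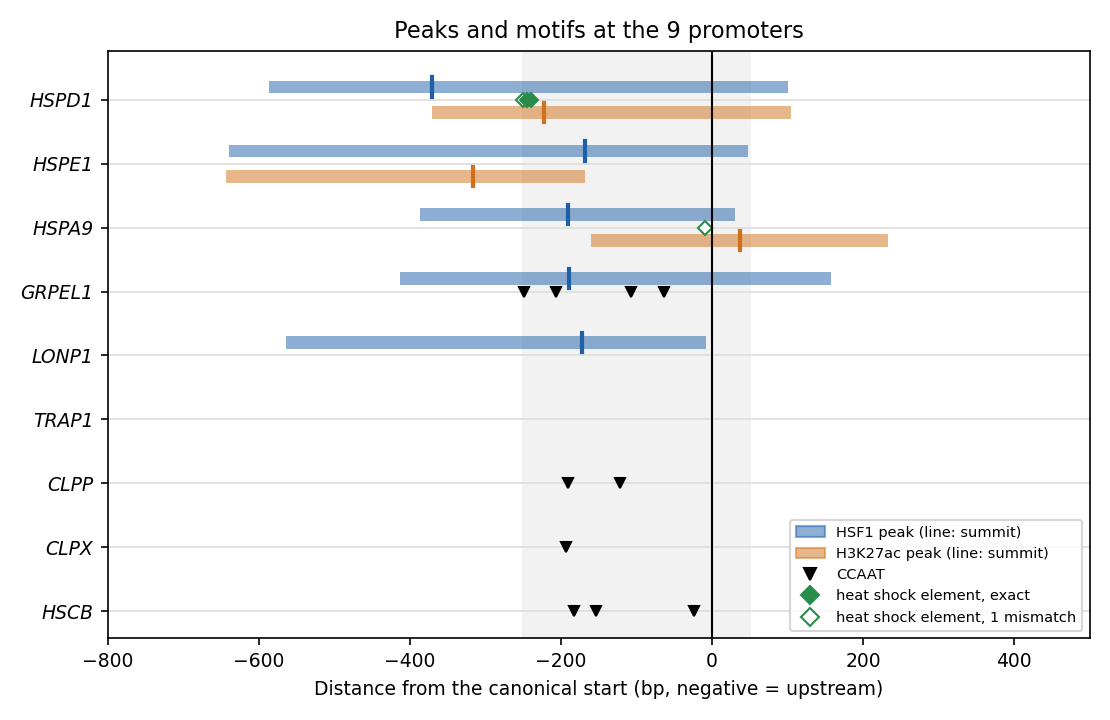
The 9 promoters aligned at the canonical start, with distance in bp on the horizontal axis (negative is upstream). Blue and orange bars are HSF1 and H3K27ac peaks with their summits as lines, triangles are CCAAT boxes and diamonds are heat shock elements, which were marked only in the shaded stretch. HSPD1 has exact elements, HSPA9 has an element with 1 mismatch, and CCAAT boxes occur at GRPEL1 and at 3 promoters without a peak.

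The positions of the summits were ordinary for this library. Measured from canonical starts, the HSF1 summits at HSPE1, LONP1, GRPEL1 and HSPA9 lay 168 to 191 bp upstream. Among the 4495 protein-coding genes with a summit within 1 kb of the canonical start, the median position was 105 bp upstream, the quartiles were 223 and 24 bp upstream, and 80.0% of the summits were upstream. HSPD1, at 371 bp upstream, lay beyond the outer quartile, and the shared summit was closer to HSPE1. The GC content within 100 bp of the HSF1 summits was 61.2% to 68.2% at the members, against a median of 66.7% at the coding promoter peaks.

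Within 100 bp of the HSF1 summit, a heat shock element with at most 1 mismatch was found at 0 of the 5 bound members, and at 2.42% of all HSF1 peaks. Within 200 bp it was found at 3 of them (HSPD1, HSPE1 and HSPA9), against 5.71% of all HSF1 peaks. HSPD1 and HSPE1 share a peak and were counted as separate genes, whereas the percentages are shares of peaks. The elements of the shared promoter and of HSPA9 lay 126 to 194 bp from the summit.

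An HSF1 peak was present at 5 of 9 members (55.6%), against 25.4% of all protein-coding genes. An H3K27ac peak was present at 3 of 9 (33.3%), against 3.31% of all protein-coding genes. These 3 genes carry 2 distinct peaks, since HSPD1 and HSPE1 share theirs. Among genes with an HSF1 peak, 3 of the 5 members also had an H3K27ac peak, against 10.1% of all such protein-coding genes. Genes that face another gene across a short gap had HSF1 peaks more often, with 53.1% of 1895 divergent coding genes against 22.6% of 18138 others. Among the members, 3 of 4 divergent genes had a peak (HSPD1, HSPE1 and LONP1, but not HSCB, which faces CHEK2 at 219 bp) and 2 of 5 others had.

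Other lists of mitochondrial genes had HSF1 peaks at shares both above and below that of the members, and H3K27ac peaks at lower shares. The shares of all protein-coding genes were 25.4% for HSF1 and 3.31% for H3K27ac. The membrane and processing proteases, with their scaffolds, had an HSF1 peak at 13 of 17 genes (76.5%) and an H3K27ac peak at 0. AFG3L2, a subunit of the m-AAA protease of the inner membrane, had a pileup of 54 and a fold enrichment of 12.6, next to the values of HSPD1-HSPE1, and its partner subunit SPG7 had a fold enrichment of 11.0. IMMP1L, a peptidase of the inner membrane, had a fold enrichment of 10.6. XPNPEP3, an aminopeptidase, had an exact heat shock element of 3 units within 100 bp of its summit, at a fold enrichment of 7.81.

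Iron-sulphur cluster assembly, the pathway that HSCB and HSPA9 serve, had HSF1 peaks at 8 of 9 genes (88.9%), against 25.4% of all protein-coding genes. The highest fold enrichments were 10.6 at GLRX5, 9.50 at ISCA2 and 8.94 at ISCA1, and FDX2 was the gene without a peak. IBA57 alone in this list also had an H3K27ac peak, with a fold enrichment of 6.78 beside an HSF1 fold enrichment of 6.99. HSCB was thus without a peak in a pathway where most genes had one.

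A list of further mitochondrial chaperone and cochaperone genes had HSF1 peaks at 3 of 5, against 25.4% of all protein-coding genes. These were CLPB, a disaggregase of the intermembrane space, at a fold enrichment of 8.14, DNLZ, a zinc finger partner of HSPA9, at 7.82, and BCS1L, an inner membrane protein for complex III assembly, at 6.02. DNAJA3, the J-domain partner of HSPA9, and GRPEL2, the paralog of GRPEL1, had none. Of 7 genes of the mitochondrial unfolded protein response, 2 (28.6%) had an HSF1 peak, a share near that of all protein-coding genes. The 2 were SOD2 at a fold enrichment of 9.09 and ATF5 at 6.19, while ATF4 and DDIT3 had none. No gene of these last lists had an H3K27ac peak. The TIMM and TOMM import genes had HSF1 peaks at 10 of 26 (38.5%) and H3K27ac peaks at 0. The MRPL and MRPS ribosomal protein genes had them at 27 (34.6%) and 6 (7.69%) of 78. For H3K27ac the share of all protein-coding genes was 3.31%.

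The relatives of the members in other compartments gave a mixed picture. For HSPA9, the cytosolic relative HSPA8 had a fold enrichment of 11.7 with an exact heat shock element within 100 bp of the summit, and HSPA5 of the endoplasmic reticulum had 10.6 with 3 CCAAT boxes and an H3K27ac peak of fold enrichment 7.14. The stress-inducible HSPA1A and HSPA1B had no listed peak. They are near-identical copies, and whether their reads were lost or split in alignment was not tested. For TRAP1, which had no peak, HSP90B1 had a fold enrichment of 7.08 and HSP90AA1 one of 6.74, and HSP90AB1 had none. For HSPD1, the cytosolic chaperonin genes TCP1 and CCT2 had fold enrichments of 10.1 and 6.32. Of 15 cytosolic chaperone genes, 7 (46.7%) had an HSF1 peak, against 25.4% of all protein-coding genes. They were led by STIP1 at 13.2, HSPA8 at 11.7 and DNAJB1 at 8.88, and 0 of the 15 had an H3K27ac peak. Besides HSPA1A and HSPA1B, the genes without an HSF1 peak were HSP90AB1, HSPB1, BAG3, CRYAB, FKBP4 and CHORDC1.

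The protein-coding genes nearest to it in fold enrichment were HSPE1-MOB4, which has the same peak, SERTAD2 at 12.3, AKAP8L at 12.3, and KLHDC3 and MEA1, which share a peak at 12.3. None of the other peaks overlapped an H3K27ac peak, and none had a heat shock element with at most 1 mismatch within 200 bp of its summit. SERTAD2 and AKAP8L had 2 and 3 CCAAT boxes within 100 bp, and the KLHDC3-MEA1 peak had none, like HSPD1-HSPE1.

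Processed copies of the members did not carry listed peaks. GENCODE annotates 45 pseudogenes of these genes, 26 of HSPE1, 18 of HSPD1 and 1 of HSPA9, and 0 of them had an HSF1 or H3K27ac summit within 1 kb of a start. Reads from near-identical stretches may be dropped or shared between copies in alignment, so this count holds for listed peaks only. Away from starts, within 10 kb of the gene bodies, HSF1 summits lay 4.64 kb from LONP1, at HSD11B1L, and 2.46 and 2.89 kb from CLPP, both at ALKBH7.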

How the data were processed

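CUT&Tag of untreated Huh7 cells was analysed from 1 HSF1 and 1 H3K27ac peak list. The authors aligned reads with Bowtie2 to hg38 and called each library alone with MACS 2.1.4 (p-value cutoff 1e-05, no control). Tags were moved 100 bp and lengthened to 200 bp, which limits how finely a summit places a bound site. Pileup, a deposited signal, counts the lengthened tags that cover a summit and carries no depth scaling, so heights were not compared between libraries. Fold enrichment, a deposited ratio, divides pileup by local background after 1 is added to each. Both the -log10 p-value and the -log10 q-value in the deposited lists are the caller's, and q, which the headers call not calculated, served only as a filter.

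Summits were joined to all transcript starts of GENCODE release 44, and percentiles were taken over all peaks of a library. Motifs were searched on both strands. The heat shock element was 3 GAA units in alternating orientation (9 fixed bases, at most 1 mismatch). Fold intervals carry over the Poisson interval of the pileup with the background held fixed. H3K27ac ChIP-seq lists, whose headers name hg19, were not used here. RNA-seq (6 samples) was not analysed here. The paper names a CUT&Tag control made without a primary antibody, but no sample is labelled as one.

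The members and gene lists were chosen with earlier results of these data known. Genes named were the 9 members, genes starting within 1 kb of a member summit, list genes with an H3K27ac peak or among the 3 highest HSF1 folds of their list, paralogs, and the 5 coding genes nearest in fold to HSPD1-HSPE1. XPNPEP3 and other genes named for lacking a peak or as nearest neighbours were added after their values were seen. Analyses ran in Python 3.11.15 with pandas 2.3.3, numpy 2.4.6, pysam 0.24.0 and scipy 1.17.1, and plots in matplotlib 3.10.9. The motif and summit searches were tested on simulated data with planted items, and 3 exact checks passed. For the heat shock element, the check required no more mismatches than were planted. The Poisson intervals were checked only for how often they held the true mean.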

Additional observations from a re-analysis of the deposited data

How the results depend on the processing

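HSF1 peaks were counted at 5 members under the distances of 500 bp, 1 kb and 2 kb, with any base of the peak, 2 other start sets and filters on q and fold. H3K27ac peaks were counted at 3 under the same distances, any base of the peak and the fold filter, and were not tried with the other start sets or the q filter. Under these settings the share of all protein-coding genes ranged from 21.5% to 26.3% for HSF1 and from 2.99% to 3.53% for H3K27ac. The median percentile was taken over the distinct peaks of the bound members, with the shared peak counted once and the far upstream HSPD1 peak left out. It was 84.4 by fold enrichment, 81.6 by pileup and 80.8 among coding promoter peaks. The counting intervals of single peaks are too wide for this to show stability. By pileup in place of fold enrichment, the far upstream HSPD1 peak went from percentile 76.0 to 55.4 and HSPA9 from 81.4 to 71.2, while GRPEL1 went from 87.5 to 92.0. The heat shock element count depended on the search: 0 of the 5 bound members had one within 100 bp with at most 1 mismatch, against 3 with 2 mismatches allowed (22.2% of all HSF1 peaks), 3 within 200 bp (5.71%), and 2 with 4 perfect units anywhere in the peak (0.028%). The last search was chosen after the data were seen. These counts are of genes, and HSPD1 and HSPE1 share 1 peak, whereas the percentages are shares of all HSF1 peaks. No paired analysis was possible because each antibody had 1 library. The H3K27ac list rests on 896393 tags after duplicate removal and the HSF1 list on 2712212, and genes without a listed peak cannot be called unbound.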

Other observations

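The other HSF1 peak with 4 perfect heat shock units in a row was at the start of SLC45A4, a gene of a solute carrier family that was named after its values were seen. Its pileup was 10 and its fold enrichment was 4.74, at percentile 2.98, and no H3K27ac peak overlapped it. The shared HSPD1-HSPE1 promoter, with the same number of units, had a pileup of 52 and a fold enrichment at percentile 98.2. The peaks that hold this element thus stood near opposite ends of the HSF1 list.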
